A study of Mus musculus with 55 samples.

Results

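Transcription regulators of brown fat were followed across 3 adipose depots of the mouse. The 9 genes Ppargc1a, Ppargc1b, Prdm16, Ebf2, Esrra, Esrrb, Esrrg, Zfp516 and Nrip1 were taken by symbol from the 31933 genes of each depot's count table. Mice were C57BL/6NRj males aged 10 weeks that received corticosterone (GC, the main glucocorticoid of rodents) in their water, or placebo (Ctrl), over 4 weeks. They were housed at 22 °C (room temperature, RT) or at 13 °C (cold, CT). Areas of tissue were cut from cryosections by laser capture microdissection and their RNA sequenced as SMART-Seq2 libraries, from brown fat between the shoulder blades (iBAT), from white fat of the gonadal depot (goWAT) and from white fat under the skin (scWAT). The 55 libraries form 12 groups. In iBAT there were 3 libraries of Ctrl at 22 °C and 5 of each other condition. In goWAT there were 4 of Ctrl at 22 °C and 5 of each other condition. In scWAT there were 4 of Ctrl at 22 °C, 4 of GC at 13 °C and 5 of each other condition. No deletion or transgene is named for any group, and which animal a library came from is not labelled, so p-values measure the spread between these libraries.

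These genes act at different steps of one programme. PGC-1alpha (Ppargc1a) and PGC-1beta (Ppargc1b) are coactivators that carry no DNA-binding domain of their own and are brought to mitochondrial genes by nuclear receptors, among them the oestrogen-related receptors ERRalpha (Esrra), ERRbeta (Esrrb) and ERRgamma (Esrrg). Noradrenaline released in the cold acts through beta-adrenergic receptors and cyclic AMP to induce Ppargc1a in brown fat. PRDM16 and EBF2 maintain brown adipocyte identity together with PPARgamma, and ZFP516 is a zinc finger protein that binds the Ucp1 promoter. NRIP1 is a corepressor that binds nuclear receptors and holds down Ucp1 and mitochondrial genes in white fat.

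Promoter windows of 3 members with a called depot difference are shown: the coactivator Ppargc1a and the receptor Esrra, which were higher in brown fat, and the corepressor Nrip1, which was lower. The identity factor Prdm16 also had called depot differences, and its window is not shown. Esrrg, the receptor with larger depot differences than Esrra, has 4 start-site windows in RefSeq and Esrra has 1. Each window runs from 250 bases before to 50 after a RefSeq start site (build GRCm38.p6), 5′ to 3′ on the gene's strand. RefSeq windows were matched by symbol for 6 of the 9 members. The Ppargc1a window lies at chr5:51567676-51567975 on the minus strand, that of Esrra at chr19:6921759-6922058 on the minus strand, and the upstream one of 2 Nrip1 windows at chr16:76373778-76374077 on the minus strand. Capitals mark CGTCA, the reverse complement of the short cyclic AMP element TGACG.
Ppargc1a: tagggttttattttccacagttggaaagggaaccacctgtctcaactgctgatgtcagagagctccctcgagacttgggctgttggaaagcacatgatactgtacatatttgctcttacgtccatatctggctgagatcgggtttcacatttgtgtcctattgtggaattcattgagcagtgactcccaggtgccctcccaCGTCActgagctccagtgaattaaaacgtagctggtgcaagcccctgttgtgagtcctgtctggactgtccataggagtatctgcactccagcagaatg
Esrra: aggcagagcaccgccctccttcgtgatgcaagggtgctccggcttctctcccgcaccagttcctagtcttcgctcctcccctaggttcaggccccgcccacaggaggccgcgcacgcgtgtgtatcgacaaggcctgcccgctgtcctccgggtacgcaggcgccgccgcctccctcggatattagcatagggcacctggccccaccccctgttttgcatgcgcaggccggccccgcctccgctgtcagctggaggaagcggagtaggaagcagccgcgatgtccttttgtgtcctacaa
Nrip1: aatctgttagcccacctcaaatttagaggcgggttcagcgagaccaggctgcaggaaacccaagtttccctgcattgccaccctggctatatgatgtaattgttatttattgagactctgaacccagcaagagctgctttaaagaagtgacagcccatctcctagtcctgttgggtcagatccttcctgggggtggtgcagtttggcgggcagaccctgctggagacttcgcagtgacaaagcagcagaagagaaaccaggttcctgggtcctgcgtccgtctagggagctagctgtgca
Both strands were searched for TGACG, the full cyclic AMP response element TGACGTCA that contains it, the ERR element TNAAGGTCA, the EBF element CCCNNGGGA and the short glucocorticoid receptor element AGAACA. The Ppargc1a window held 1 TGACG match, at position -49 from the start site. TGACG was present in 20.8% of the 32851 mouse promoter windows, TGACGTCA in 1.79%, the ERR element in 1.28%, the EBF element in 6.56% and AGAACA in 19.0%. The Esrra and Nrip1 windows printed here, and the 4 Esrrg windows, held none of these letters. The Prdm16 window and the second Nrip1 window, not printed, held none either. Of the Esrrb windows, also not printed, the first held TGACG at -158 and at -117, and the second held AGAACA at -221. The Ppargc1a window had 48.7% G and C and 5 CpG dinucleotides, against 66% and 25 in the Esrra window and 52.7% and 6 in the printed Nrip1 window. The second Nrip1 window had 73.3% and 40. A match is a description of letters only.

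Assigned reads numbered 14043800 to 35790700 per iBAT library, 12310800 to 53121400 per goWAT library and 8622180 to 56450700 per scWAT library. Levels below are normalised read counts relative to library size (CPM) on one scale for all 55 libraries. The summed level of 8 brown adipocyte markers that are not members was 6481 to 42994 CPM in iBAT, 21.1 to 1767 CPM in goWAT and 99.8 to 3108 CPM in scWAT, so the labelled depots and their markers went together. Some libraries carried transcripts of other cells. The summed level of 10 white adipocyte markers reached 1075 to 3669 CPM in 5 of the 18 iBAT libraries (Ctrl RT 1 and 2, Ctrl CT 1 and 4, GC CT 2), against 103 to 820 CPM in the other 13. The summed level of 15 macrophage markers was 12139 and 8487 CPM in scWAT GC RT 2 and 3, against 326 to 1854 CPM in the other scWAT libraries, and 6501 CPM in iBAT GC RT 5. Skeletal muscle markers (16 genes) reached 1459 CPM in iBAT GC CT 4 and 2820 CPM in the highest scWAT library, where the median was 84.7 CPM. Brown adipocyte markers reached 1274 and 1767 CPM in goWAT GC RT 1 and GC CT 1. Markers of epithelium and epididymis (10 genes) reached 3576 CPM in goWAT Ctrl CT and 1308 CPM in goWAT GC RT, where the goWAT median was 24.5 CPM.

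The coactivators were far higher in brown than in white fat. Ppargc1a (chromosome 5, 51454250 to 51567726, mm10) ranged from 33.2 to 168 CPM in the 18 iBAT libraries with a median of 67.6 CPM. It ranged from 2.59 to 9.37 CPM in the 19 goWAT libraries (median 5.20 CPM) and from 3.8 to 50.2 CPM in the 18 scWAT libraries (median 14.5 CPM). Every iBAT library lay above every goWAT library, while 1 scWAT library, at 50.2 CPM, reached into the iBAT range. Averaged over the 4 conditions, Ppargc1a was higher in iBAT than in goWAT by 3.68 ± 0.26 (log2 fold change ± SE) and higher than in scWAT by 2.41 ± 0.25. It was lower in goWAT than in scWAT (-1.26 ± 0.24). Adjusted p was 7.6e-17, 3.8e-11 and 0.00015 in edgeR's quasi-likelihood test after Benjamini-Hochberg adjustment over the 22245 genes tested. In bulk tissue, fewer cells of a type and less RNA per cell cannot be told apart.

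Of the 9 members, 7 were higher and 1 was lower in iBAT than in goWAT, where 57.4% of all genes tested were called in either direction (a call is an edgeR adjusted p under 0.05). Against scWAT, 6 were higher and 1 lower in iBAT, with 44.6% of all genes called. The higher members include Esrrb in both comparisons, which passed the low-count filter of this fit through its iBAT reads. Between the white depots 3 members were lower in goWAT than in scWAT and none higher, with 18% of all genes called. The median log2 fold change was 2.32, 1.51 and -0.36 over the members. Over all genes tested it was -0.20, -0.15 and 0.02, so the depot values of single genes can be read against a shift of that size. In the Ctrl RT groups alone, with 3, 4 and 4 libraries, 5, 3 and 0 members were called, beside 14.7%, 2.81% and 4.33% of all genes: Ppargc1a, Ppargc1b and Esrrg in iBAT against both white depots, and Prdm16 and Esrra against goWAT.

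Ppargc1b, the second coactivator, ranged from 24.3 to 92.0 CPM in iBAT (median 39.6 CPM), from 3.71 to 15.1 CPM in goWAT (median 7.36 CPM) and from 4.99 to 18.2 CPM in scWAT (median 9.74 CPM). No iBAT library overlapped a white fat library. Its difference was 2.41 ± 0.19 against goWAT and 2.05 ± 0.19 against scWAT (edgeR adjusted p = 5.6e-16 and 4.8e-13). The white depots did not differ beyond their spread (-0.36 ± 0.18, edgeR adjusted p = 0.16). Levels of different genes can be compared only roughly per kilobase of exon. The divisor is the union of annotated exons, not the length of the transcript expressed. On that scale the median levels of Ppargc1a and Ppargc1b in iBAT were alike, 10.3 and 9.92 CPM per kb. In goWAT Ppargc1b stood above Ppargc1a, with medians of 1.85 and 0.789 CPM per kb, and the per-length ratio of Ppargc1a to Ppargc1b was over 1 in 1 of 19 goWAT libraries, 8 of 18 iBAT libraries and 4 of 18 scWAT libraries.

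**Figure D1:**
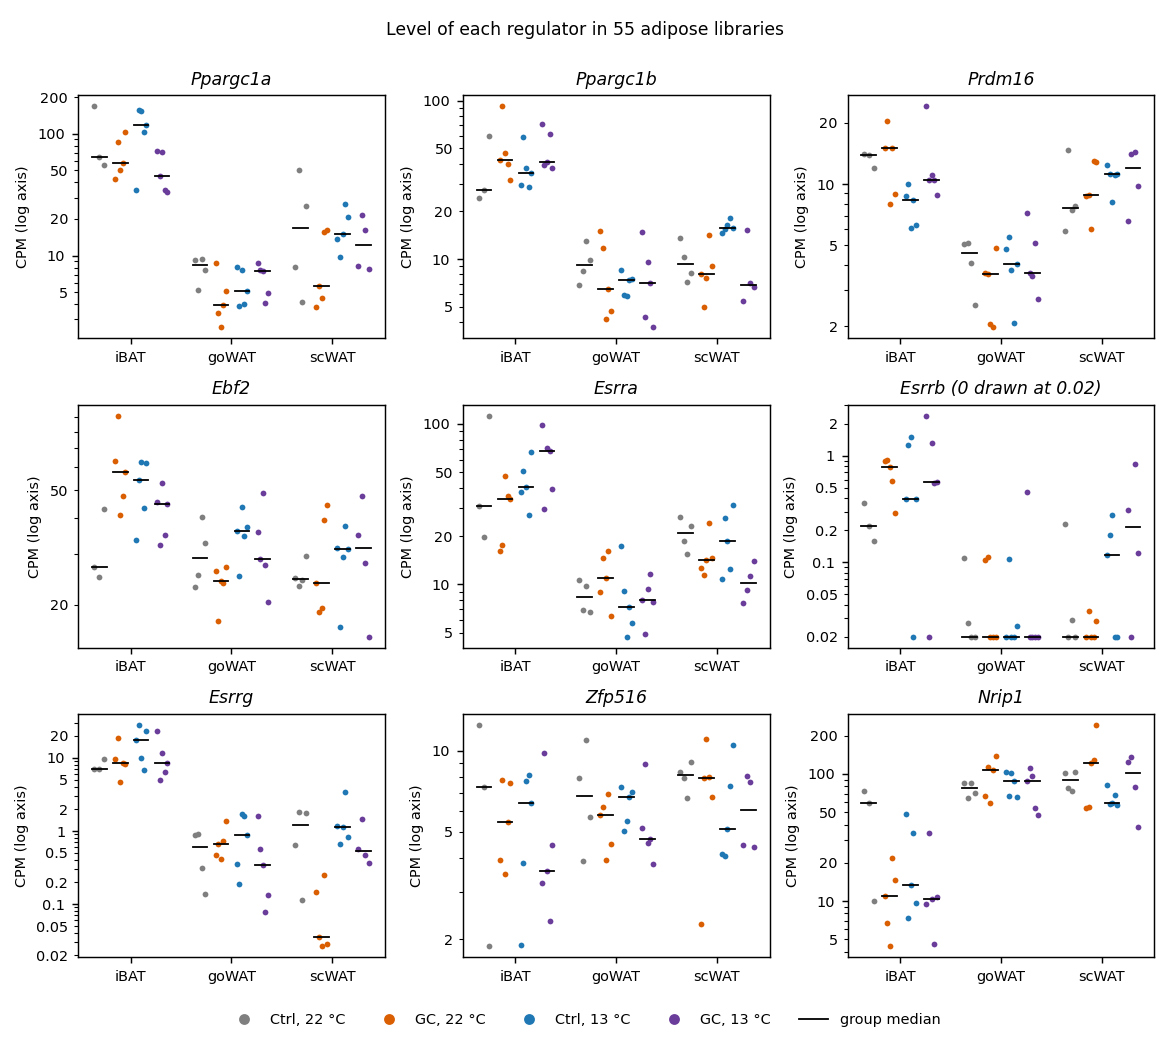
Level of each regulator in CPM (log axis) in every library, grouped by depot and condition; the line is the group median. Ppargc1a, Ppargc1b, Esrra, Esrrb and Esrrg stand highest in iBAT, Nrip1 stands lowest there, and Zfp516 spans much the same range in the 3 depots.

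The 3 oestrogen-related receptors differed in level and shared a direction between brown and white fat. Esrra (chromosome 19, 6910977 to 6921813), the most abundant of them, ranged from 16.2 to 112 CPM in iBAT (median 38.3 CPM), 4.72 to 17.4 CPM in goWAT (median 8.91 CPM) and 7.70 to 31.4 CPM in scWAT (median 14.5 CPM). The iBAT and goWAT ranges met at their edges and those of iBAT and scWAT overlapped. Esrra was higher in iBAT by 2.32 ± 0.20 against goWAT and 1.51 ± 0.20 against scWAT (edgeR adjusted p = 3.0e-14 and 1.3e-08). It was lower in goWAT than in scWAT (-0.81 ± 0.19, edgeR adjusted p = 0.0021).

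Esrrg (chromosome 1, 187608791 to 188214885), which is known as the receptor of highly oxidative tissues, ranged from 4.69 to 28.1 CPM in iBAT (median 9.20 CPM). It ranged from 0.0790 to 1.71 CPM in goWAT (median 0.573 CPM) and from 0.0266 to 3.46 CPM in scWAT (median 0.610 CPM). No white fat library reached the lowest brown fat library. Its differences were the largest of the members that were detected in every library, 4.03 ± 0.36 against goWAT and 4.27 ± 0.38 against scWAT (edgeR adjusted p = 1.2e-13 and 3.1e-13), and the white depots did not differ beyond their spread (0.25 ± 0.34, edgeR adjusted p = 0.67). The per-length ratio of Esrra to Esrrg was over 1 in every library, with medians of 5.93 in iBAT, 30.7 in goWAT and 53.7 in scWAT.

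Esrrb, best known from embryonic stem cells, was near the detection limit. It ranged from 0 to 2.38 CPM in iBAT and had no read in 2 of 18 iBAT, 12 of 19 goWAT and 8 of 18 scWAT libraries. The reads summed to 223 in iBAT, 30 in goWAT and 62 in scWAT. Esrrb was higher in iBAT by 3.75 ± 0.70 against goWAT and 2.81 ± 0.68 against scWAT (edgeR adjusted p = 1.0e-05 and 0.00061). It fell below the low-count filter in the fits within goWAT and within scWAT. In the fit over all depots it was tested on account of its iBAT reads, so these calls are not independent of that filter.

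The identity factors were less specific to brown fat. Prdm16 ranged from 6.06 to 24.1 CPM in iBAT (median 10.5 CPM), 1.97 to 7.23 CPM in goWAT (median 3.76 CPM) and 5.89 to 14.7 CPM in scWAT (median 10.4 CPM). It was higher in iBAT than in goWAT (1.56 ± 0.17, edgeR adjusted p = 2.1e-11) and lower in goWAT than in scWAT (-1.36 ± 0.16, edgeR adjusted p = 1.4e-08). Brown and subcutaneous fat did not differ beyond their spread in Prdm16 (0.19 ± 0.17, edgeR adjusted p = 0.36). Of its exonic bases, 1.17% overlap another gene.

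Ebf2, which marks brown and beige precursors, ranged from 25 to 90.8 CPM in iBAT (median 45.1 CPM), 17.5 to 49.0 CPM in goWAT (median 27.6 CPM) and 15.5 to 47.9 CPM in scWAT (median 28.6 CPM). All 3 ranges overlapped. Ebf2 was higher in iBAT by 0.58 ± 0.14 and 0.65 ± 0.14 (edgeR adjusted p = 0.00034 and 0.00014), the smallest called depot differences among the members. An antisense gene, Gm10860, shares 6.12% of its exonic bases, and whether the counting used strand is not given in the sources used here.

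Zfp516 ranged from 1.89 to 12.4 CPM in iBAT (median 4.96 CPM), 3.8 to 11.0 CPM in goWAT (median 5.70 CPM) and 2.27 to 11.1 CPM in scWAT (median 7.53 CPM), and all ranges overlapped. None of its depot differences was called (-0.08 ± 0.21, -0.26 ± 0.21 and -0.18 ± 0.20, edgeR adjusted p = 0.78, 0.34 and 0.59). Without the 5 iBAT libraries rich in white adipocyte transcripts, Zfp516 was lower in iBAT than in goWAT (-0.64) and scWAT (-0.80) with edgeR adjusted p = 0.0172 and 0.00408. In that fit 46.8% and 37.6% of all genes were called and their median stood at -0.39 and -0.28, and 1 Ctrl RT library of iBAT was left. Without 15 libraries of any depot rich in transcripts of other cells or low in counts, Zfp516 stood at -0.01 and -0.08 and was not called.

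**Figure D2:**
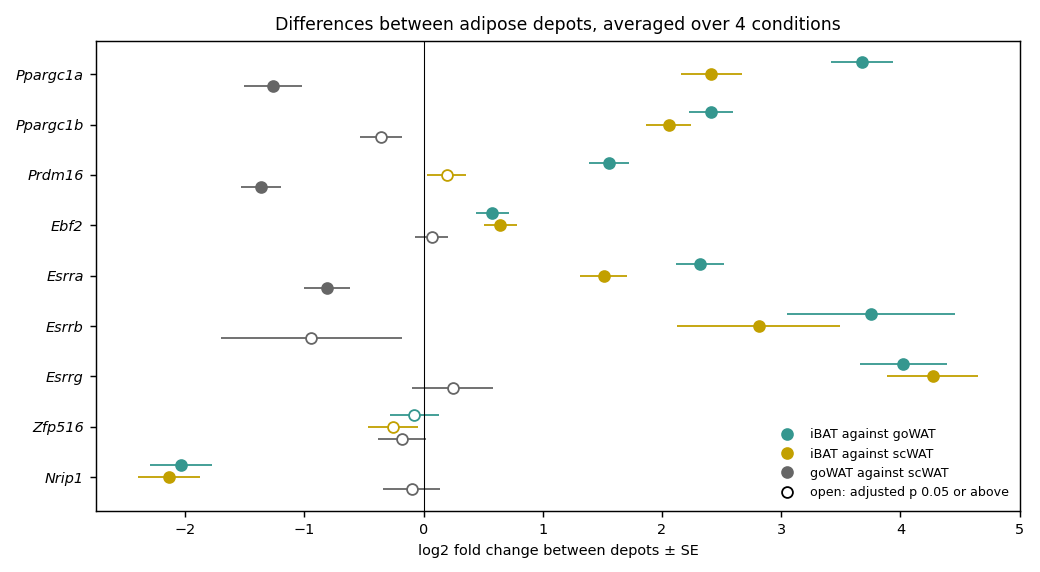
Log2 fold change between depots (x axis, ± SE) for each regulator, averaged over the 4 conditions; filled points passed an edgeR adjusted p of 0.05. Nrip1 is the 1 member called lower in iBAT, at -2.03 and -2.13, and Esrrg is highest at 4.03 and 4.27.

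Nrip1 (chromosome 16, 76287400 to 76373827), the corepressor, had the opposite pattern. It ranged from 4.43 to 73.7 CPM in iBAT (median 10.9 CPM), 47.5 to 137 CPM in goWAT (median 85.4 CPM) and 38.2 to 242 CPM in scWAT (median 78.4 CPM). Of the 18 iBAT libraries, 15 lay below every white fat library and 3 overlapped them. Nrip1 was lower in iBAT by -2.03 ± 0.26 against goWAT and -2.13 ± 0.26 against scWAT (edgeR adjusted p = 2.8e-09 and 2.3e-09). The white depots did not differ beyond their spread (-0.10 ± 0.24, edgeR adjusted p = 0.83). In the Ctrl RT groups alone the difference of Nrip1 was -0.68 and -0.90 and was not called (edgeR adjusted p = 0.439 and 0.438); 2 of those 3 iBAT libraries are among the 5 described next.

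Within iBAT, Nrip1 moved with white adipocyte transcripts. In the 5 iBAT libraries rich in them Nrip1 was 34.5 to 73.7 CPM with a median of 48.4 CPM. In the other 13 it was 4.43 to 21.8 CPM with a median of 9.99 CPM, so the libraries did not overlap. Ppargc1a in the same libraries overlapped, with 34.6 to 168 CPM in the 5 and 33.2 to 157 CPM in the 13. Without the 5, the difference of Nrip1 was -3.04 against goWAT and -3.12 against scWAT. The median over all genes in that fit was -0.39 and -0.28. The 5 hold the highest Nrip1 values of iBAT, so leaving them out was bound to widen the difference and is no separate test.

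**Figure D3:**
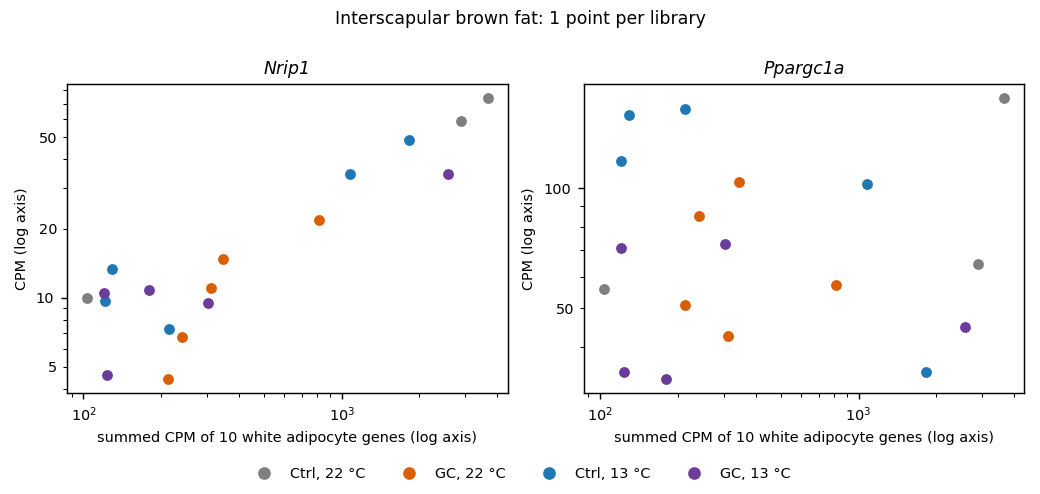
Nrip1 and Ppargc1a in CPM (y axes, log) against the summed CPM of 10 white adipocyte genes (x axes, log) in the 18 iBAT libraries. Nrip1 is 34.5 CPM or higher in the 5 libraries at 1075 CPM or more and 21.8 CPM or lower in the other 13; Ppargc1a shows no such split.

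The balance of coactivator to corepressor was read within each library, where no scaling between libraries enters. This ratio was chosen after its values were seen, depends on the exon lengths used and carries no test. The per-length ratio of Ppargc1a to Nrip1 was 1.24 to 37.4 in iBAT (median 10.7), above 1 in 18 of 18 libraries. It was 0.0515 to 0.226 in goWAT (median 0.134), above 1 in 0 of 19. In scWAT it was 0.0646 to 1.13 (median 0.283), above 1 in 1 of 18 libraries, a Ctrl RT library.

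Corticosterone at 22 °C gave no member call in iBAT (9 tested), where edgeR called 0.664% of all genes, and 2 members had an unadjusted p under 0.05. Nrip1 was 73.7, 58.7 and 9.99 CPM in the 3 Ctrl libraries and 11.0, 6.78, 4.43, 21.8 and 14.8 CPM in the 5 GC libraries. The groups overlapped through the third Ctrl library, and the fitted difference was -2.02 ± 0.69 (edgeR adjusted p = 0.23). The first and second Ctrl libraries are those with 3669 and 2906 CPM of white adipocyte markers, against 103 CPM in the third and 212 to 820 CPM in the GC libraries. Without the 5 libraries rich in these markers the fitted value for Nrip1 was 0.24 (edgeR adjusted p = 0.91). That value sets the 5 GC libraries against the third Ctrl library alone, which is assumed to vary like the libraries of the other groups, so it gives no direction for the conditions. The 7 other members ran from -0.85 (Esrra) to 1.41 (Esrrb) in the fit to all libraries, with Ppargc1a at -0.51, Zfp516 at -0.37, Prdm16 at 0.01, Esrrg at 0.32 and Ppargc1b at 0.44.

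Ebf2 was the other one. It was 27.0, 25 and 43.0 CPM in Ctrl and 63.3, 90.8, 40.9, 47.7 and 57.7 CPM in GC at 22 °C. A single GC library lay within the Ctrl range, and the difference was 0.92 ± 0.30 (edgeR adjusted p = 0.19). Without the same 5 libraries, again against 1 Ctrl library, it was 0.50 (edgeR adjusted p = 0.67). With limma-voom and library quality weights both Ebf2 (1.01, adjusted p = 0.014) and Nrip1 (-2.25, adjusted p = 0.018) were called, among 5.66% of all genes called by that method, and DESeq2 called no member.

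Corticosterone at 13 °C gave no member call in iBAT either, against 0.728% of all genes, and 2 members had an unadjusted p under 0.05. Ppargc1a was 34.6, 157, 153, 102 and 117 CPM in Ctrl and 72.5, 44.8, 70.7, 34.5 and 33.2 CPM in GC. All GC libraries lay below 4 of the 5 Ctrl libraries, and the remaining Ctrl library lay among them. The difference of Ppargc1a was -1.16 ± 0.39 (edgeR adjusted p = 0.22). Prdm16, the other one, was 8.74, 10.0, 6.06, 8.35 and 6.32 CPM in Ctrl and 24.1, 10.5, 11.1, 10.4 and 8.87 CPM in GC, with a difference of 0.69 ± 0.31 (edgeR adjusted p = 0.44) and groups that overlapped. The 7 other members ran from -0.72 (Nrip1) to 0.43 (Esrra), with Esrrg at -0.68, Ebf2 at -0.31, Zfp516 at -0.28, Ppargc1b at 0.38 and Esrrb at 0.41.

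Cold gave no member call in iBAT. In Ctrl mice 0.0175% of all genes were called by edgeR, and 3 members had an unadjusted p under 0.05. Prdm16 was 14.0, 13.8 and 12 CPM at 22 °C and 8.74, 10.0, 6.06, 8.35 and 6.32 CPM at 13 °C. Every cold library lay below every library at 22 °C, with a difference of -0.74 ± 0.35 (edgeR adjusted p = 0.565). The share of all genes whose groups separate in this way was not counted. Esrrg was 7.05, 7.12 and 9.75 CPM at 22 °C and 17.7, 28.1, 9.84, 6.90 and 23.7 CPM at 13 °C (1.13 ± 0.52, edgeR adjusted p = 0.56), and the groups overlapped through 1 cold library. Ebf2 had a difference of 0.71 ± 0.29 (edgeR adjusted p = 0.494; limma-voom with quality weights 0.92, adjusted p = 0.0225). Limma-voom also called Nrip1 (-1.88, adjusted p = 0.0339), which had a difference of -1.06 ± 0.69 in edgeR (adjusted p = 0.698). It called 6% of all genes in this comparison, and DESeq2 called no member in any iBAT comparison. Ppargc1a itself, the cold-induced coactivator, was 168, 64.6 and 55.9 CPM at 22 °C against 34.6 to 157 CPM at 13 °C, with a difference of 0.24 ± 0.44 (edgeR adjusted p = 0.92). Zfp516 stood at -0.37, Esrra at -0.27, Ppargc1b at 0.04 and Esrrb at 1.47.

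In GC-treated mice 0.00583% of all genes were called between the temperatures in iBAT, and no member was, although 2 had an unadjusted p under 0.05. Esrra was 16.2, 17.7, 47.1, 35.7 and 34.2 CPM at 22 °C and 98.5, 29.3, 70.6, 67.5 and 39.1 CPM at 13 °C (1.01 ± 0.42, edgeR adjusted p = 0.27), with overlapping groups. Ebf2 had a difference of -0.52 ± 0.25 (edgeR adjusted p = 0.315). The 7 other members lay between -0.42 (Ppargc1a) and 0.47 (Esrrb), with Zfp516 at -0.28, Prdm16 at -0.06, Ppargc1b at -0.02, Esrrg at 0.12 and Nrip1 at 0.24. The difference of the GC differences between the temperatures, the interaction, was called for no member and for 0% of all genes in iBAT, where 1 member had an unadjusted p under 0.05: Ebf2, at -1.23 ± 0.38 (edgeR adjusted p = 0.76). For this interaction Esrrb and Esrrg both stood at -1.0, Ppargc1a at -0.65, Ppargc1b at -0.06, Zfp516 at 0.09, Prdm16 at 0.68, Esrra at 1.28 and Nrip1 at 1.30.

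In goWAT no member was called in any comparison, by edgeR, DESeq2 or limma-voom with quality weights, and none had an unadjusted p under 0.05 in edgeR. Corticosterone changed 5.98% of all genes there at 22 °C and 1.45% at 13 °C, cold changed 0.312% in Ctrl and 0.0149% in GC mice, and the interaction 0.461%. The smallest unadjusted p was that of Ppargc1a with GC at 22 °C. Ppargc1a was 9.23, 5.20, 9.37 and 7.57 CPM in Ctrl and 8.75, 3.37, 2.59, 3.95 and 5.10 CPM in GC (-0.68 ± 0.34, edgeR adjusted p = 0.25). The groups overlapped through the first GC library, which is the one with 1274 CPM of brown adipocyte markers, against 39.6 to 131 CPM in the other 4. Without it and GC CT 1 the difference of Ppargc1a was -1.01 (edgeR adjusted p = 0.0565). The first GC library holds the highest Ppargc1a of its group, so leaving it out was bound to widen the difference and is no separate test. Nrip1 was 85.4, 64.5, 84.8 and 70.7 CPM in Ctrl and 67.3, 114, 58.5, 106 and 137 CPM in GC at 22 °C, with overlapping groups (0.39 ± 0.28, edgeR adjusted p = 0.42). The 6 other members tested ran from -0.34 (Prdm16 and Zfp516) to 0.48 (Esrra), with Ebf2 at -0.31, Ppargc1b at -0.14 and Esrrg at 0.44.

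In the other goWAT comparisons the receptor Esrrg, at the lowest counts of the 8 members tested, held the widest values. With GC at 13 °C Esrrg stood at -0.82 ± 0.74 and the other 7 lay between -0.21 (Zfp516) and 0.21 (Ppargc1a), with Ebf2 at -0.11, Nrip1 at -0.09, Esrra at -0.07, Prdm16 at 0.16 and Ppargc1b at 0.18. With cold in Ctrl mice Esrrg stood at 0.77 ± 0.79 and the other 7 between -0.43 (Ppargc1a) and 0.23 (Ebf2), with Ppargc1b at -0.42, Zfp516 at -0.15, Prdm16 at -0.05, Esrra at 0.07 and Nrip1 at 0.17. With cold in GC mice the 8 lay between -0.49 (Esrrg) and 0.46 (Ppargc1a), with Esrra at -0.47, Nrip1 at -0.31, Ppargc1b at -0.10, Zfp516 at -0.03, Ebf2 at 0.43 and Prdm16 at 0.44. The interaction ran from -1.26 ± 1.09 (Esrrg) to 0.89 ± 0.47 (Ppargc1a), with Esrra at -0.54, Nrip1 at -0.48, Zfp516 at 0.12, Ebf2 at 0.20, Ppargc1b at 0.33 and Prdm16 at 0.49. None of these values was called.

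**Figure D4:**
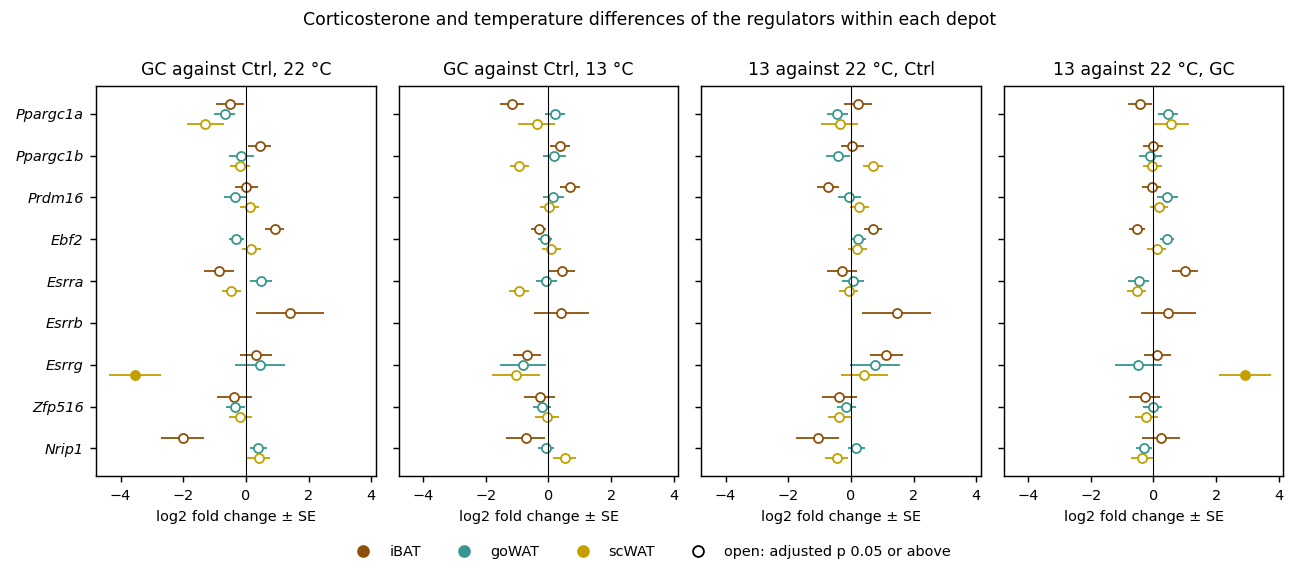
Log2 fold change (x axes, ± SE) of each regulator with corticosterone at each temperature and with cold in each treatment, by depot; filled points passed an edgeR adjusted p of 0.05. The 2 filled points are both Esrrg in scWAT, at -3.54 and 2.91; Esrrb was tested in iBAT only.

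In scWAT 1 member fell with corticosterone at 22 °C, among 8 tested, where edgeR called 6.93% of all genes. Esrrg was 0.644, 1.84, 0.114 and 1.79 CPM in the 4 Ctrl libraries and 0.145, 0.0352, 0.0266, 0.248 and 0.0280 CPM in the 5 GC libraries. These GC values stand for 7, 2, 1, 6 and 1 reads. The third Ctrl library, with 4 reads, lay within the GC range, and the other 3 lay above it. The difference of Esrrg was -3.54 ± 0.83 (edgeR adjusted p = 0.012).

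The call on Esrrg moved with the libraries used. Macrophage markers summed to 12139 and 8487 CPM in GC libraries 2 and 3, 789.9 to 1854 CPM in the other 3, and 592 to 1601 CPM in Ctrl. Without GC libraries 2 and 3 the difference was -2.99 (edgeR adjusted p = 0.088), and with limma-voom and quality weights -3.74 (adjusted p = 0.073). Leaving out any single library kept it between -4.10 and -3.17 (edgeR adjusted p = 0.0053 to 0.047). The part of the macrophage transcripts in this result was not tested beyond leaving those libraries out.

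Ppargc1a had a difference of -1.29 ± 0.58 in the same comparison (edgeR adjusted p = 0.19). Its values were 8.09, 50.2, 4.20 and 25.6 CPM in Ctrl and 3.8, 5.68, 4.52, 15.6 and 16.3 CPM in GC, and the groups overlapped. The Ctrl libraries themselves spread over more than the GC group, with 50.2 CPM in the second and 4.20 CPM in the third. The same libraries had 288 and 11.1 CPM of Ucp1, the uncoupling protein that makes heat. Brown adipocyte markers, which include Ucp1, summed to 2956 and 740.0 CPM in them. The 6 other members tested ran from -0.46 (Esrra) to 0.41 (Nrip1), with Ppargc1b at -0.19, Zfp516 at -0.18, Prdm16 at 0.12 and Ebf2 at 0.17.

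**Figure D5:**
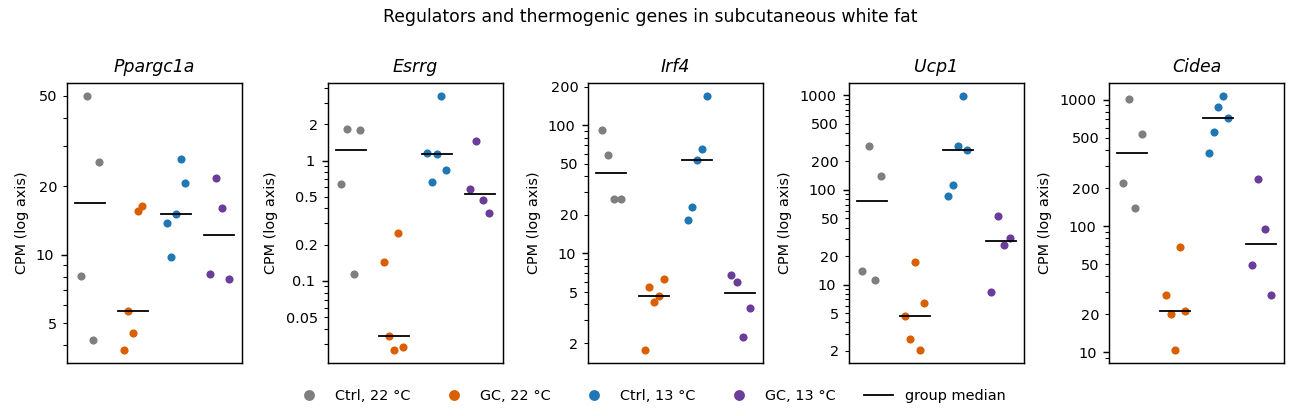
Ppargc1a, Esrrg, Irf4, Ucp1 and Cidea in CPM (log axes) in the 18 scWAT libraries by condition; the line is the group median. Irf4 separates GC from Ctrl at both temperatures, whereas the Ppargc1a groups overlap throughout.

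At 13 °C no member was called with corticosterone in scWAT, against 2.59% of all genes, and 2 had an unadjusted p under 0.05. Ppargc1b was 14.6, 15.4, 16.3, 18.2 and 15.7 CPM in Ctrl and 5.44, 15.2, 7.10 and 6.69 CPM in GC (-0.93 ± 0.32, edgeR adjusted p = 0.13). A single GC library, the third by label, reached the Ctrl range, and without it the difference was -1.33 (edgeR adjusted p = 0.031). That library is singled out here for its value, so leaving it out was bound to widen the difference and is no separate test. Limma-voom with quality weights called Ppargc1b with all libraries (-0.99, adjusted p = 0.021), among 7.97% of all genes called by that method. Esrra was 10.8, 26.1, 18.7, 12.5 and 31.4 CPM in Ctrl and 7.70, 9.29, 11.2 and 14.0 CPM in GC, with overlapping groups (-0.93 ± 0.32, edgeR adjusted p = 0.13). Epithelial markers summed to 289 and 329 CPM in GC libraries 4 and 5 and to 73.2 CPM in GC library 3, against 0.133 CPM in GC library 1 and 89.3 CPM in the highest Ctrl library; their part was not tested. Ppargc1b was 5.44 CPM in that GC library 1, below every Ctrl library. Esrrg stood at -1.05 ± 0.76 and Ppargc1a at -0.38, and the other 4 members tested lay between -0.05 (Zfp516) and 0.52 (Nrip1), with Prdm16 at 0.03 and Ebf2 at 0.08.

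Cold in Ctrl mice gave no member call in scWAT and 0% of all genes passed, while edgeR gave 2364 genes and 1 member an unadjusted p under 0.05. That member was Ppargc1b, at 13.7, 10.4, 7.17 and 8.22 CPM at 22 °C and 14.6, 15.4, 16.3, 18.2 and 15.7 CPM at 13 °C. The 2 groups did not overlap (0.70 ± 0.31, edgeR adjusted p = 0.37). The share of all genes without overlap was not counted, here or in the next comparison. The 7 other members tested ran from -0.46 (Nrip1) to 0.42 (Esrrg), with Zfp516 at -0.37, Ppargc1a at -0.36, Esrra at -0.07, Ebf2 at 0.19 and Prdm16 at 0.27. In GC mice 1 member rose with cold, where 8.18% of all genes were called. Esrrg was 0.145, 0.0352, 0.0266, 0.248 and 0.0280 CPM at 22 °C and 0.575, 1.46, 0.473 and 0.367 CPM at 13 °C, and the groups did not overlap (2.91 ± 0.82, edgeR adjusted p = 0.035). The 7 other members tested ran from -0.54 (Esrra) to 0.55 (Ppargc1a), with Nrip1 at -0.35, Zfp516 at -0.23, Ppargc1b at -0.03, Ebf2 at 0.10 and Prdm16 at 0.18.

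This call was lost without the 2 macrophage-rich libraries (2.39, edgeR adjusted p = 0.197), without the libraries with epithelial transcripts, which leaves 1 GC library at 13 °C that is assumed to vary like the other groups (2.63, edgeR adjusted p = 0.705), and with limma-voom and quality weights (3.47, adjusted p = 0.086). Without the macrophage-rich libraries, 2 genes in all were called in place of 1555, and without the epithelial ones 4 were. Leaving out any of GC RT 2, 3 or 5, or GC CT 1, 3 or 4, lost it as well (2.33 to 3.07, edgeR adjusted p = 0.057 to 0.14). For the interaction in scWAT 0% of all genes were called, and Esrrg, the 1 member with an unadjusted p under 0.05, stood at 2.49 ± 1.09 (edgeR adjusted p = 0.47). The 7 other members tested ran from -0.73 (Ppargc1b) to 0.91 (Ppargc1a) for the interaction, with Esrra at -0.47, Prdm16 and Ebf2 at -0.09, Nrip1 at 0.11 and Zfp516 at 0.14.

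Whether the corticosterone difference itself varied between the depots was tested across all 55 libraries. At 22 °C no member passed, with 0.742% of all genes called and 3 members at an unadjusted p under 0.05. The smallest edgeR adjusted p values were 0.054 for Esrrg and 0.083 for Nrip1, the genes with GC differences of -3.54 in scWAT and -2.02 in iBAT, and Ebf2 followed at 0.18. At 13 °C no member passed either, with 0.234% of all genes called and 2 members at an unadjusted p under 0.05, Ppargc1b and Esrra (edgeR adjusted p = 0.34 and 0.40). Leaving out single libraries, in non-robust fits, gave 0 to 2 member calls at 22 °C.

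Genes downstream and around these regulators were read from lists that were chosen with earlier results of these data known. Of 17 thermogenic effector genes tested in scWAT, 11 fell and 0 rose with GC at 22 °C, and 5 fell with GC at 13 °C, where 6.93% and 2.59% of all genes were called. The median over the list was -2.62 and -2.65, against 0.06 and 0.01 over all genes. Cox8b, a cytochrome oxidase subunit of brown fat, fell by 4.43 ± 0.51 on the log2 scale at 22 °C (edgeR adjusted p = 3.15e-05). Ucp1 fell by 4.12 ± 1.0 and Cidea, a lipid droplet protein, by 4.04 ± 0.67 at 22 °C (edgeR adjusted p = 0.020 and 0.0011). Dio2, the enzyme that activates thyroid hormone, fell by 6.04 ± 1.16 (edgeR adjusted p = 0.0042). Without the macrophage-rich libraries 5 effectors were called at 22 °C in place of 11, while calls over all genes went from 1317 to 738 and the list median was -3.19. Without the libraries with epithelial transcripts, which leaves 1 GC library at 13 °C, 0 genes of this list and of the 3 lists described below were called with GC at 13 °C in scWAT. In that refit 0.161% of all genes were called in place of 2.59%, and the median of the effectors was -3.74. The brown adipocyte markers summed to 99.8 to 266 CPM in the GC libraries and 740.0 to 2956 CPM in Ctrl at 22 °C. Ucp1, Cidea, Cox8b, Cox7a1 and Kcnk3 belong to both lists, so this sum is no separate readout.

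In goWAT none of the 16 effectors tested was called with GC, and the list medians were positive, 1.72 at 22 °C and 2.27 at 13 °C. Without the 2 goWAT libraries rich in brown adipocyte transcripts, both GC libraries, the medians were 0.01 and -0.06, and 2 effectors fell and 0 rose at 22 °C, with 10.5% of all genes called. The effectors share genes with the markers that picked these libraries, so leaving them out was bound to lower the medians. In iBAT none of the 19 effectors tested was called with GC at either temperature (medians of -0.34 and -0.0016), and 1 of 19, Elovl3, a fatty acid elongase, rose with cold in GC mice (3.36 ± 0.45, edgeR adjusted p = 0.0032). Between depots, where 57.4% and 44.6% of all genes were called, 19 of 19 were higher in iBAT than in goWAT and 18 of 19 higher than in scWAT. Of 38 mitochondrial genes known as ERR and PGC-1 targets, 37 were higher in iBAT than in goWAT and 1 was lower, and 37 were higher than in scWAT. The list medians were 2.30 and 1.87, beside 2.32 and 1.51 for Esrra itself in the same comparisons.

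With GC in scWAT, 8 of these 38 targets fell at 22 °C and 6 at 13 °C, and 0 rose at either, where 6.93% and 2.59% of all genes were called. The medians were -0.78 at both, against 0.06 and 0.01 over all genes. Hadha and Hadhb, the subunits of the trifunctional protein of fatty acid oxidation, fell by 1.69 ± 0.27 and 1.42 ± 0.29 at 22 °C and by 1.33 ± 0.28 and 1.40 ± 0.30 at 13 °C (edgeR adjusted p = 0.00059, 0.0049, 0.011 and 0.013). Esrra, one of their known regulators, had differences of -0.46 ± 0.31 and -0.93 ± 0.32 in these comparisons and was not called. Without the macrophage-rich libraries 2 targets were called at 22 °C and 8 at 13 °C, with list medians of -0.65 and -0.76 and 3.84% and 3.13% of all genes called. In GC mice 5 targets rose with cold in scWAT, where 8.18% of all genes were called, and 0 were called without those libraries.

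Of 36 partner regulators, Irf4, a transcription factor that works with PGC-1alpha, fell with GC in all 6 comparisons of GC with Ctrl. The differences were -3.55, -3.39 and -3.54 at 22 °C and -3.96, -3.34 and -3.84 at 13 °C in iBAT, goWAT and scWAT (edgeR adjusted p = 0.0052, 0.016, 0.0011, 0.0014, 0.035 and 0.0024). The summed level of 10 lymphocyte markers also had a lower median in GC than in Ctrl in each depot at each temperature. In goWAT it was 74.6 to 209 CPM in GC and 343 to 452 CPM in Ctrl at 22 °C. At 13 °C it was 79.3 to 202 CPM in GC and 263 to 657 CPM in Ctrl there. In iBAT and scWAT the GC and Ctrl ranges overlapped. The part of lymphocyte transcripts in the Irf4 values was not tested. Klf15, a glucocorticoid-responsive factor, fell in iBAT by 3.32 ± 0.40 and 2.04 ± 0.35 (edgeR adjusted p = 0.00020 and 0.0050). Ppara, the nuclear receptor of fatty acids, fell in scWAT at 13 °C by 2.20 ± 0.46 (edgeR adjusted p = 0.0094). With GC at 22 °C, 0 of the 36 partners rose and 2 fell in iBAT, 3 rose and 4 fell in goWAT, and 2 rose and 3 fell in scWAT. Of all genes, 0.664%, 5.98% and 6.93% were called in these comparisons, in either direction. Klf15 was also among the partners that fell at 22 °C in goWAT (-1.54 ± 0.24) and in scWAT (-1.30 ± 0.31), with edgeR adjusted p = 0.00066 and 0.013. Zbtb16, a zinc finger factor, rose in goWAT and scWAT at 22 °C by 1.36 ± 0.35 and 2.0 ± 0.55 (edgeR adjusted p = 0.025 and 0.031). Ebf1, a relative of Ebf2, rose in scWAT by 1.30 ± 0.28 at 22 °C and 1.21 ± 0.27 at 13 °C (edgeR adjusted p = 0.0065 and 0.016), where Ebf2 had differences of 0.17 ± 0.30 and 0.08 ± 0.30.

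Of 25 controllers of PGC-1alpha, 0 were called in iBAT in any of its comparisons by edgeR, where at most 0.728% of all genes were called. With GC, 2 fell in goWAT at 22 °C and none was called there at 13 °C. In scWAT 1 rose and 1 fell at each temperature, and 2 rose with cold in GC mice. Of all genes, 5.98% and 1.45% were called with GC in goWAT at 22 °C and 13 °C, and 6.93% and 2.59% in scWAT. With cold in scWAT of GC mice 8.18% of all genes were called. Adrb3, the beta-adrenergic receptor of adipocytes, fell with GC in goWAT at 22 °C by 1.5 ± 0.39 (edgeR adjusted p = 0.024) and rose with cold in scWAT of GC mice by 1.98 ± 0.46 (edgeR adjusted p = 0.019), where no controller was called without the macrophage-rich libraries. Lpin1, a coactivator partner of PGC-1alpha, fell with GC in scWAT at 13 °C by 1.31 ± 0.31 (edgeR adjusted p = 0.024), while Mapk14, the p38 kinase that activates PGC-1alpha, rose by 0.83 ± 0.19 (edgeR adjusted p = 0.021). At 22 °C in scWAT Crtc3, a coactivator of CREB, rose by 1.10 ± 0.33 and Akt2, an insulin-signalling kinase, fell by 0.93 ± 0.27 (edgeR adjusted p = 0.046 and 0.038). Akt2 rose with cold in GC mice by 1.32 ± 0.27 (edgeR adjusted p = 0.014). Prkaa1, a catalytic subunit of AMP-activated kinase, fell with GC in goWAT at 22 °C by 0.89 ± 0.20 (edgeR adjusted p = 0.011). At 22 °C in scWAT no controller was called without the macrophage-rich libraries, where 3.84% of all genes were called.

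The genes most like each member were found by the root mean square difference of centred mean log2 CPM over the 12 groups, among 7849 genes, as a description with no test. For Esrra they were Atp5mpl, Ndufa11 and Ndufc2, small subunits of ATP synthase and respiratory complex I, at differences of 0.14, 0.14 and 0.16. For Ppargc1b they were Ndufv2, Sod2 and Lyrm7 at 0.23 each, also mitochondrial. For Ppargc1a they were Pde4d, Fuom and Suclg1 at 0.41, 0.42 and 0.46. Pde4d breaks down cyclic AMP. For Esrrg they were Coq8a, Gk and Ppara at 0.56, 0.63 and 0.66, with a profile that spans 6.72 log2 units. For Prdm16 they were Ebf3, Chst11 and Nedd4l at 0.38, 0.40 and 0.42. For Nrip1 they were Mgl2, C1ra and Rtn2 at 0.25, 0.30 and 0.30. Mgl2 is a macrophage lectin.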

How the data were processed

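The deposited values were raw read counts per gene, 1 table for each depot. Per the submitters' processing notes, the tools named are FastQC, GSNAP and featureCounts 1.6.3 with build mm10. For the annotation release, the use of strand and reads that map to several places, nothing was given in the sources used here. Symbols, positions and exon lengths came from GENCODE.

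Counts were fitted in R 4.3.3 with edgeR 4.0.16 (filterByExpr with a minimum count of 10 and a minimum total of 15, TMM scaling, robust quasi-likelihood fits). Each depot had its own fit with 4 groups, and depots were compared in a fit over all 55 libraries. A call is a Benjamini-Hochberg adjusted p under 0.05 over all genes tested. Printed CPM use the scaling over 55 libraries, and per-kilobase values divide by the union of exons. Libraries of a group varied with a biological coefficient of variation of 50.5% (iBAT), 50.0% (goWAT) and 47.8% (scWAT). Replicate libraries of a group correlated at 0.872 to 0.971 over 101 pairs, across genes, and 0 pairs were identical.

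The members and gene lists were chosen with earlier results of these data known. All 9 members are named in every comparison within a depot or between depots where they were tested, those with an unadjusted p under 0.05 with their error and the others mostly by their difference alone; of each list, at most 4 called genes per comparison could be named, smallest adjusted p first, and Ucp1, Dio2, Cidea, Pparg, Ppara, Cebpb and Irf4 in any. Alternatives were DESeq2 1.42.0, limma 3.58.1 (voom with library quality weights), another scaling, no filter, a replicate block, the Ctrl RT groups alone and single libraries left out. Leaving out libraries rich in transcripts of other cells or low in counts, and non-robust fits, were chosen after seeing the data. For comparisons over all 55 libraries, the fits with single libraries left out were non-robust, while the reported fit was robust. The scripts were tested on simulated data.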

Additional observations from a re-analysis of the deposited data

Results flagged for a closer look

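In 3 of 91 groups of 4 or 5 libraries, 1 library lay far from the others by the gap to its nearest neighbour relative to the range of the group. Chance gives about 1 in 20 groups, or 4.55 of 91. Ppargc1a was 34.6 CPM in iBAT Ctrl CT 1, below the 102 to 157 CPM of the other 4 libraries. Prdm16 was 24.1 CPM in iBAT GC CT 1, above the 8.87 to 11.1 CPM of the other 4. Prdm16 was 8.16 CPM in scWAT Ctrl CT 3, below the 11.0 to 12.4 CPM of the other 4.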

How the results depend on the processing

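Of 696 alternative counts of called members over 20 comparisons, 669 stayed within 1.5 times the value reported. Of these 696, 457 belong to the 15 comparisons with 0 members called, of which 445 stayed at 0. Counts for the gene lists moved by more in 272 of 1421 alternatives, and of 8457 alternative values of single genes 284 lost a call, 8 gained one and 11 changed sign. With limma-voom and quality weights 2 members were called for GC at 22 °C in iBAT (971 of 17163 genes in all), 2 for cold in Ctrl in iBAT (1029), 1 for GC at 13 °C in scWAT (1514 of 19003), and 0 for GC at 22 °C and for cold in GC in scWAT (2266 and 2891). Without the macrophage-rich scWAT libraries the last 2 counts were also 0, and without the epithelial ones that for cold in GC was 0. In the Ctrl RT groups alone 5, 3 and 0 members were called between the depots, and 14.7%, 2.81% and 4.33% of all genes. Leaving out single libraries gave 0 to 1 for GC at 13 °C and for cold in GC in scWAT. In non-robust fits it gave 0 to 2 for the GC difference between depots at 22 °C. With the replicate number as a block, 0 members were called for cold in GC in scWAT (Esrrg 3.28, edgeR adjusted p = 0.0511), and no other member count changed. Within a depot the numbers did not pair the libraries: same-numbered ones had mean correlations of deviations of 0.045, -0.0059 and -0.011 in iBAT, goWAT and scWAT. Across depots, same-numbered libraries of a condition had a mean of 0.057, with 16 of 53 pairs over 0.1, against -0.015 and 22 of 202 for different numbers, and whether they share an animal is not labelled. Reversed signs, with causes not tested, were Ppargc1a with GC at 22 °C in iBAT (-0.78 to 0.15 with single libraries left out, the latter without Ctrl RT 1, and 0.29 without the libraries rich in white adipocyte transcripts, which leaves 1 Ctrl library), Nrip1 there (0.24 without those libraries) and Esrrg there (-0.047 to 0.50, the former without GC RT 2). Zfp516 between iBAT and goWAT was 0.029 in Ctrl RT alone and -0.24 to 0.030 with single libraries left out, the latter without iBAT Ctrl RT 3. Between goWAT and scWAT, Esrrg was -0.95 in Ctrl RT alone, Ebf2 -0.011 without 15 libraries, and Nrip1 -0.16 to 0.0066, the latter without scWAT GC RT 5. Between iBAT and scWAT in Ctrl RT alone, Crtc3 was 0.017 and Klf15 0.098. Depth limits Esrrb and, in scWAT, Esrrg, which had 1 to 7 reads in the GC libraries at 22 °C.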
